A study of Mus musculus with 2 samples.

Results

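Cd209a conventional type 2 dendritic cells are here the droplet barcodes of sorted tumor leukocytes that carried Cd209a transcripts together with other genes of this cell type. A barcode was a member when it had at least 1 UMI (unique molecular identifier, 1 counted transcript molecule) of Cd209a and at least 2 UMIs in sum of Clec10a, Napsa, H2-DMb2 and Ifitm1. It also had at most 1 UMI of Retnla, Ear2 and Lyz1, at most 2 of the complement genes C1qa, C1qb and C1qc, and 0 of Cd3d, Cd3e and Cd3g and of Xcr1 and Clec9a. Of 10801 barcodes with at least 200 detected genes and under 10% mitochondrial UMIs, 143 were members, 61 in shSdc1 and 82 in shRFP. Members were chosen by these measured genes, so the levels of these genes describe the choice and are not findings.

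The study compared B16 tumors, a transplanted mouse melanoma line, in wild-type mice. In the shSdc1 group the injected B16 cells carried a hairpin that targets Sdc1, which encodes syndecan-1, a proteoglycan of the cell surface, and in the shRFP group a control hairpin. All mice had first been immunized at the other flank with irradiated B16-GM-CSF cells, B16 cells that release the myeloid growth factor GM-CSF, and the tumor cells followed 12 days later. After another 16 days the 6 tumors of a group were pooled and digested, and live CD45+ leukocytes were sorted and sequenced as 1 library per group. One label gives the shSdc1 sample the genotype Sdc1 knock out, but by its title and the protocol only the injected tumor cells were altered, with a hairpin, and the host's dendritic cells were wild type in both groups. With 1 library per group there is no spread between replicates and no test between the groups. Genes are called higher or lower at a ratio of at least 1.5-fold, shSdc1 over shRFP, and bracketed ranges are 95% intervals of counting error alone, which hold nothing of the spread among tumors, mice or libraries. The libraries held 4370725 UMIs in 5902 barcodes (shSdc1) and 4255928 UMIs in 5786 barcodes (shRFP), and the members held 74744 and 87575 of these UMIs. The median member had 1174 UMIs and 678 genes in shSdc1, against 981.5 UMIs and 589.5 genes in shRFP, both deeper than the median kept barcode (601 UMIs in shSdc1 and 662 UMIs in shRFP). The libraries shared 20 barcode sequences, and 0 of these were members.

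Conventional type 2 dendritic cells are antigen-presenting cells that arise from a Flt3-dependent progenitor, take up material in tissues, load its peptides on MHC class II and present them mainly to CD4 T cells. In the mouse they carry C-type lectins, sugar-binding surface receptors such as Mgl2 (CD301b) and Clec10a (CD301a). Type 1 dendritic cells, marked by Xcr1 and Clec9a, cross-present antigen on MHC class I to CD8 T cells, and either type takes up a Ccr7 program before it migrates to the lymph node. Cd209a (DC-SIGN of the mouse) is also made by dendritic cells that derive from monocytes.

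The promoters of Cxcl2 and Ier3 are shown because both genes were among the lowest in shSdc1 members relative to shRFP members and both stretches hold the same 9 letters of a kB motif, the sequence class bound by NF-kB. Cxcl2 encodes a chemokine that draws neutrophils, and Ier3 an early response protein of stressed and stimulated cells. The stretches are from the RefSeq promoter table on GRCm38.p6, plus strand, 5′ to 3′, and end at the base before the annotated gene start. They run over chr5:90903649-90903870 for Cxcl2 and chr17:35821463-35821683 for Ier3, with the kB letters in capitals.
Cxcl2: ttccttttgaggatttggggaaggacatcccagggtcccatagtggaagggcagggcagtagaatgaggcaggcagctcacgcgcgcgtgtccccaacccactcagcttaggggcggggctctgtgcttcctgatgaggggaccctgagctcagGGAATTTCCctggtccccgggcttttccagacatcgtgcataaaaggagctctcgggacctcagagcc
Ier3: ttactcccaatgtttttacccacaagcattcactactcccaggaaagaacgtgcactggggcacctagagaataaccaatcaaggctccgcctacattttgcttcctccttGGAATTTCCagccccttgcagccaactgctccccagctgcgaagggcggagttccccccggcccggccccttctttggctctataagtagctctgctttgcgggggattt
The capitals lie 96 to 88 bases before the RefSeq start of Cxcl2 and 139 to 131 bases before that of Ier3. The windows of that table run on to the RefSeq start, and their last 28 (Cxcl2) and 29 (Ier3) bases are left out here. The capitals are thus nearer to the gene starts at which the stretches end. The letters GGAATTTCC were searched on both strands, as were TTCNNNGAA (GAS, an interferon gamma motif), GAAA followed after any 2 bases by GAAA (the core of the interferon response element) and TGANTCA (AP-1), which had no match in these 2 stretches. Of 32851 promoter windows of 250 bases in that table, 0.286% held GGAATTTCC, 7.02% TTCNNNGAA, 2.98% the paired GAAA letters and 6.75% TGANTCA. Among the 24 genes named below by size of change, 16 had a promoter in the table and 2 held GGAATTTCC, Cxcl2 and Ier3. In the list of NF-kB and inflammatory genes 4 of 22 with a promoter held it, and in the chemokine list 4 of 13. A match describes letters, and binding was not measured.

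The 5 marker genes had the following levels in members, in CPM, that is UMIs per 1000000 UMIs of the members. Cd209a (ENSMUSG00000031494, mm10 chromosome 8, 3743397 to 3748984, minus strand) had 134 UMIs (1793 CPM) in shSdc1 and 189 UMIs (2158 CPM) in shRFP. Napsa, an aspartic protease, had 129 UMIs (1726 CPM) in shSdc1 and 122 UMIs (1393 CPM) in shRFP, and was seen in 48 and 55 members. Clec10a had 63 UMIs (843 CPM) in shSdc1 and 84 UMIs (959 CPM) in shRFP. None of these 3 genes differed by 1.5-fold. H2-DMb2, a chain of the MHC class II peptide editor, had 39 UMIs (522 CPM) in shSdc1 and 52 UMIs (594 CPM) in shRFP. Ifitm1, an interferon-inducible membrane gene, had 45 UMIs (602 CPM) in 20 members in shSdc1 and 104 UMIs (1188 CPM) in 33 members in shRFP, a ratio of 0.507 [0.349 to 0.726]. Ifitm1 was the marker gene that differed most in level, and since it is part of the rule this is a description. In the Ccr7 barcodes, where the rule did not use it, Ifitm1 had 3 UMIs in shSdc1 and 20 UMIs in shRFP. Its relatives Ifitm2 and Ifitm3 had ratios of 0.912 [0.697 to 1.19] and 0.812 [0.633 to 1.04] in members, not lower by 1.5-fold.

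Few members showed every marker. All 4 genes beside Cd209a were seen in 5 members in shSdc1 and 2 in shRFP, while 15 and 23 members showed 1 of them only. Cd209a itself was counted once in 23 members in shSdc1 and 42 in shRFP. At the edge of the rule, members with exactly 2 marker UMIs (14 in shSdc1 and 26 in shRFP) had 53729 and 57414 CPM over the 4 class II genes Cd74, H2-Aa, H2-Ab1 and H2-Eb1. Barcodes that met all else but had 1 marker UMI (24 and 32) had 50961 and 46076 CPM. Mgl2 was at 1503 and 1530 CPM just inside, and at 2013 and 1046 CPM just outside. Csf1r was at 62.6 and 201 CPM just inside, and at 228 and 144 CPM just outside. The barcodes on either side of the limit were thus near each other in class II. For Mgl2 and Csf1r the higher side was not the same in the 2 groups, which was not tested. The sets held 15969 and 24837 UMIs just inside and 26334 and 27737 just outside, so the Csf1r values rest on few molecules. Without a Cd209a UMI but with all else met there were 122 barcodes in shSdc1 and 198 in shRFP, more than there were members, with Mgl2 at 491 and 533 CPM and class II at 56059.5 and 46559 CPM.

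Outside the rule genes, the members were marked by class II genes and by Mgl2. The 15 genes that led members over all other kept barcodes, by the mean of the 2 libraries' log2 ratios among 373 eligible genes, are a description, since members and other barcodes were separated by measured genes. Mgl2 led the ranking at 13.4-fold in shSdc1 and 8.77-fold in shRFP, with 119 UMIs (1592 CPM) and 129 UMIs (1473 CPM) in members. Il1r2, the decoy receptor for interleukin-1, followed at 6.62-fold and 7.30-fold, and Cbfa2t3, a transcriptional corepressor, was at 8.07-fold and 3.64-fold. The class II genes H2-Ab1, H2-Eb1, H2-DMb1, H2-Aa and Cd74 lay between 4.18-fold and 5.58-fold. Mgl2 and the rule gene Clec10a are related neighbours on chromosome 11, as are H2-DMb1 and the rule gene H2-DMb2 on chromosome 17. How reads shared by related genes were counted is not known, so the lead of Mgl2 and H2-DMb1 may follow in part from the rule. The other leading genes included Olfm1, Vrk1, Syngr2, Klrd1 and the membrane genes Tmem176a and Tmem176b. H2-Aa was at 13218 CPM in shSdc1 members and 11487 CPM in shRFP members, at 11283 and 13313 CPM in the Xcr1 or Clec9a barcodes, and at 2198 and 1837 CPM in the C1q barcodes of macrophage type.

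**Figure D1:**
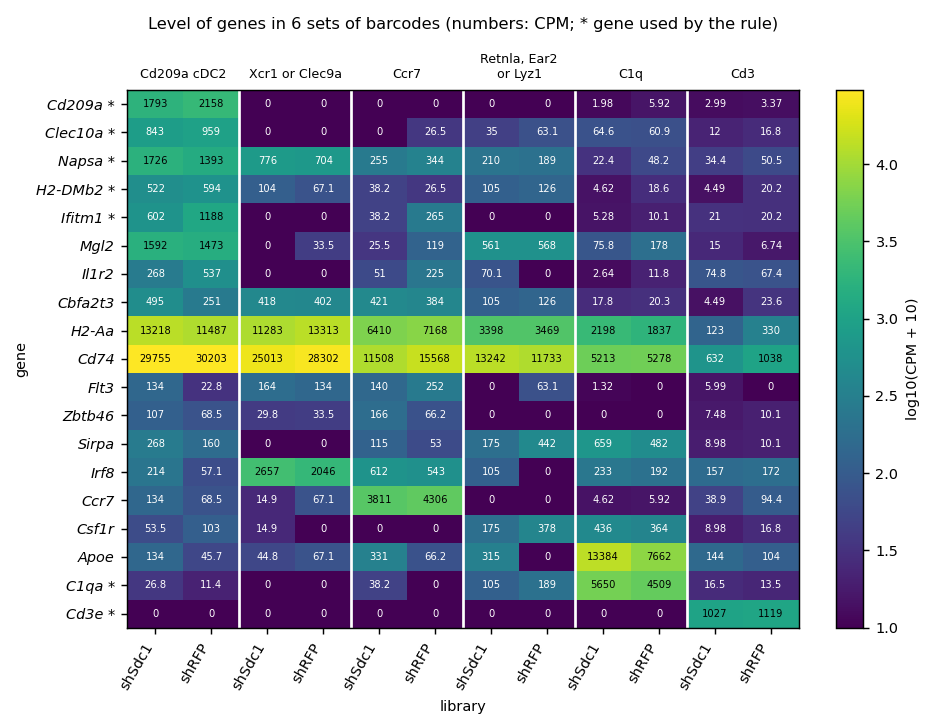
The heat map gives the level of 19 genes in CPM (printed in each cell, colour on a log10 scale after adding 10) in the members and 5 comparison sets of barcodes, with shSdc1 left of shRFP in each. Cd209a and Mgl2 stood highest in members, Irf8 in Xcr1 or Clec9a barcodes, Ccr7 in Ccr7 barcodes and Apoe in C1q barcodes, and the starred genes were used by the rule.

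The label could be checked on defining genes that the rule did not use, which were sparse at this depth. At least 1 UMI of Flt3, Zbtb46, Irf4, Kit or Dpp4, genes of conventional dendritic cells, was seen in 28 members in shSdc1 (45.9% [33.1 to 59.2]) and 29 in shRFP (35.4% [25.1 to 46.7]). At least 1 UMI of Csf1r, Fcgr1, C5ar1, Adgre1, Ly6c2 or Mertk, genes of monocytes and macrophages, was seen in 15 members in shSdc1 (24.6% [14.5 to 37.3]) and 16 in shRFP (19.5% [11.6 to 29.7]). In each group 6 members had both kinds, and 24 in shSdc1 and 43 in shRFP had neither. Because members differed in depth, each barcode was also thinned to 500 UMIs. The dendritic genes were then seen in 28.3% of members in shSdc1 and 20.5% in shRFP, against 0.314% and 0.750% of C1q barcodes and 4.62% and 1.81% of Cd3 barcodes, while the monocyte and macrophage genes were seen in 15.0% and 10.3% of members, against 56.2% and 51.1% of C1q barcodes and 12.0% and 6.33% of Cd3 barcodes. The dendritic genes were thus above either background, and the second set lay between its shares in C1q and Cd3 barcodes. That set holds Ly6c2, which T cells can express too, and Csf1r alone was seen in 1.67% and 3.85% of members, against 0.402% and 0.905% of Cd3 barcodes. Flt3 had 10 UMIs in 8 members in shSdc1 and 2 UMIs in 2 members in shRFP, a ratio of 5.86 with an interval of 1.25 to 55.0, on few molecules. Zbtb46 had 8 and 6 UMIs, so most of the 29 shRFP members counted above had a UMI of Irf4, Kit or Dpp4. Itgax, which encodes CD11c, had 10 and 8 UMIs, and Sirpa 20 and 14 UMIs. The class II level goes with the dendritic label, though the rule itself used the class II gene H2-DMb2. The single genes did not all do so. Flt3 and Itgax were seen in 8 and 9 of 61 members in shSdc1, and Csf1r and Fcgr1 in 4 each. In shRFP, Flt3 and Itgax were seen in 2 and 6 of 82 members, and Csf1r and Fcgr1 in 9 each. The monocyte list, 10 of 10 genes seen, had 147 UMIs (1967 CPM) in shSdc1 and 149 UMIs (1701 CPM) in shRFP. Among its genes were Plac8 with 60 and 49 UMIs and Ccr2 with 23 and 33 UMIs. The monocyte list was at 940 and 570 CPM in Xcr1 or Clec9a barcodes and at 331 and 384 CPM in Ccr7 barcodes, lower than in members. In all other kept barcodes it was at 1114 and 2200 CPM. An origin from monocytes thus cannot be told apart for single members.

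Members were a smaller share of kept barcodes in shSdc1 by count, a difference that depended on the selection and the denominator. They made up 1.09% [0.838 to 1.40] of 5576 kept barcodes in shSdc1 and 1.57% [1.25 to 1.94] of 5225 in shRFP, a ratio of 0.697 [0.492 to 0.983]. That interval includes 1 under 4 of 6 alternatives, among them barcodes with at least 500 genes (0.853 [0.578 to 1.26]) and barcodes thinned to 500 UMIs (0.662 [0.380 to 1.13]). The C1q barcodes were 28.0% in shSdc1 and 19.5% in shRFP, and the Cd3 barcodes, of T cell type, 15.2% and 8.10%, so the denominator differed as well. Outside the C1q and Cd3 barcodes the members were 1.93% in shSdc1 and 2.17% in shRFP, a ratio of 0.888 [0.627 to 1.25], and the smaller share was then within counting error. Of the barcodes in the 3 dendritic sets, members were 30.7% in shSdc1 and 40.4% in shRFP (ratio 0.759 [0.536 to 1.07]). The Xcr1 or Clec9a barcodes went the other way, 38 in shSdc1 and 24 in shRFP (0.681% and 0.459% of kept barcodes), a ratio of 1.48 [0.867 to 2.59]. The Ccr7 barcodes, 100 and 97, had a ratio of 0.966 [0.723 to 1.29]. Cd209a had 0 UMIs in the Ccr7 barcodes of both groups, while 5 members in shSdc1 and 3 in shRFP had a Ccr7 UMI.

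Between the groups, the members in shSdc1 had more transcripts of Ccnd1, of the class I transporter Tap1, of the class II regulator Ciita and of cell cycle genes, and fewer of Cxcl2, Cd14, Ier3, Il1b, Cebpb and glycolytic enzymes. The main class II genes had ratios near 1. Of 1347 genes with at least 20 UMIs in members of both groups together, 163 (12.1%) were higher and 242 (18%) lower by 1.5-fold. The counting interval lay above 1 for 63 genes (4.68%) and below 1 for 94 (6.98%). The median log2 ratio over all 1347 genes was -0.05. Among the 838 genes with at least 30 UMIs, from which the named genes were taken, 72 (8.59%) were higher and 127 (15.2%) lower, with an interval above 1 for 45 (5.37%) and below 1 for 78 (9.31%). The 12 genes in each direction with the interval bound farthest from 1 are described next.

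**Figure D2:**
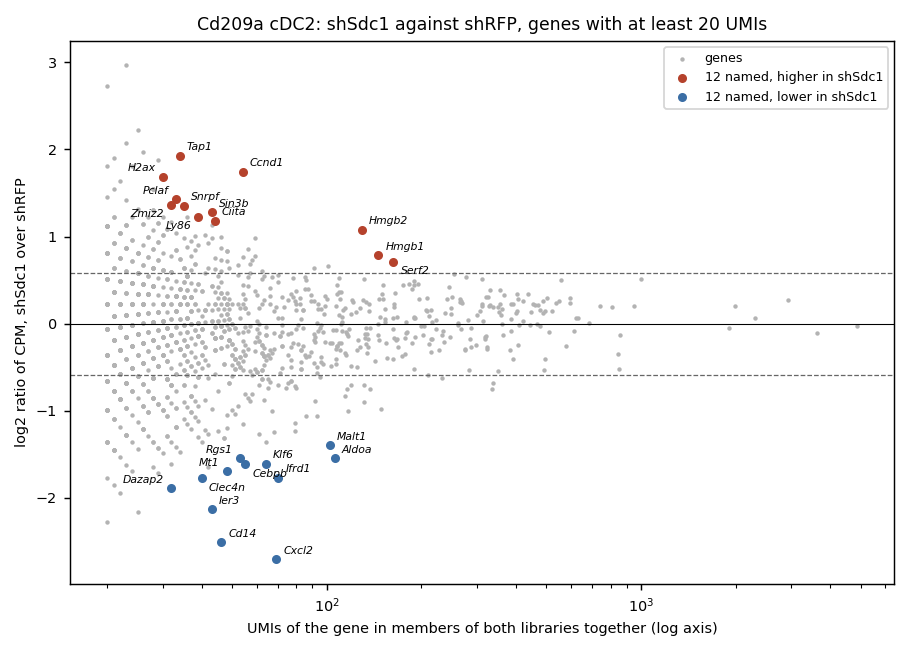
Each point is a gene with at least 20 UMIs in members. The log2 ratio of CPM (shSdc1 over shRFP) is plotted against the gene's UMIs in both groups together on a log axis, dashed lines mark 1.5-fold, and S100a9, with 0 UMIs in shSdc1, is not drawn. The spread narrows from left to right as UMIs increase, and the named genes lie at its edges.

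Ccnd1 and Tap1 led the genes that were higher in shSdc1. Ccnd1 (mm10 chromosome 7, 144929931 to 144939925, minus strand) encodes cyclin D1, which drives entry into the cell cycle. It had 40 UMIs (535 CPM [382 to 729]) in 26 members in shSdc1, against 14 UMIs (159.9 CPM [87.4 to 268]) in 10 members in shRFP, a ratio of 3.35 [1.78 to 6.66]. Ccnd1 was not higher in the other sets, with ratios of 1.39 [0.608 to 3.57] in Xcr1 or Clec9a barcodes, 0.577 [0.172 to 1.75] in Ccr7 barcodes and 0.852 [0.723 to 1.01] in C1q barcodes. Tap1 (chromosome 17, 34187553 to 34197225, plus strand) encodes a subunit of the transporter that carries peptides to MHC class I. It had 26 UMIs (348 CPM [227 to 510]) in 19 members in shSdc1 and 8 UMIs (91.4 CPM [39.4 to 180]) in 8 members in shRFP, a ratio of 3.81 [1.67 to 9.73]. Tap1 was also higher in C1q barcodes, at 1.77 [1.37 to 2.30], and in Ccr7 barcodes, at 1.81 [0.976 to 3.48], but not in Xcr1 or Clec9a barcodes, at 1.02 [0.528 to 2.06]. The difference between these ratios and that of members was not tested.

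The other genes higher in shSdc1 included chromatin proteins of dividing cells. Hmgb2 had 83 UMIs in 25 members in shSdc1 and 46 UMIs in 20 members in shRFP, a ratio of 2.11 [1.46 to 3.10]. H2ax, a histone variant, had 22 UMIs in 11 members and 8 UMIs in 4 members, with 5 of the 8 in 1 shRFP member, a ratio of 3.22 [1.38 to 8.37]. Pclaf, a partner of the replication clamp, had 23 UMIs in 9 members and 10 UMIs in 6 members (2.69 [1.23 to 6.34]). These 3 genes came from less than a majority of the members. Hmgb1 had 87 and 59 UMIs (1.73 [1.23 to 2.45]), Serf2 95 and 68 UMIs (1.64 [1.19 to 2.27]) and the splicing protein gene Snrpf 24 and 11 UMIs (2.56 [1.21 to 5.78]). The corepressor gene Sin3b had 29 and 14 UMIs (2.43 [1.24 to 4.97]), Zmiz2 22 and 10 UMIs (2.58 [1.17 to 6.1]), and Ly86, which encodes MD-1, the partner of the receptor RP105, 26 and 13 UMIs (2.34 [1.16 to 4.97]). Ciita, the master regulator of class II transcription, had 29 UMIs (388 CPM) in 18 members in shSdc1 and 15 UMIs (171 CPM) in 14 members in shRFP, a ratio of 2.27 [1.18 to 4.55].

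Cxcl2 and Cd14 were the lowest in shSdc1. Cxcl2 (chromosome 5, 90903871 to 90905938, plus strand), whose promoter is shown above, had 8 UMIs (107 CPM [46.2 to 211]) in 2 members in shSdc1 and 61 UMIs (697 CPM [533 to 895]) in 15 members in shRFP, a ratio of 0.154 [0.0635 to 0.322]. A single shRFP member held 16 of the 61 UMIs, and the ratio without the top member of each group was 0.0789. Cd14 (chromosome 18, 36725067 to 36726798, minus strand), the co-receptor for lipopolysaccharide, had 6 UMIs (80.3 CPM [29.5 to 175]) in 5 members in shSdc1 and 40 UMIs (457 CPM [326 to 622]) in 18 members in shRFP, a ratio of 0.176 [0.0609 to 0.417]. Ier3 (chromosome 17, 35821684 to 35822923, plus strand) had 7 UMIs in 5 members in shSdc1 and 36 UMIs in 18 members in shRFP, a ratio of 0.228 [0.0856 to 0.519]. Each of the 3 genes was thus carried by a minority of members, smaller in shSdc1. In a selection with no limits on Retnla, Ear2, Lyz1 and C1q UMIs, which has 64 members in shSdc1 and 86 in shRFP, Cxcl2 was at 0.513. All other kept barcodes were lower too, with ratios of 0.370 [0.360 to 0.380] for Cxcl2, 0.360 [0.341 to 0.381] for Cd14 and 0.435 [0.412 to 0.459] for Ier3. For Cxcl2 the sets differed, at 0.477 [0.452 to 0.503] in C1q barcodes and 1.47 [0.959 to 2.27] in Ccr7 barcodes.

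Transcription and signalling genes followed among the lower ones. Cebpb, a transcription factor of myeloid and inflammatory programs, had 12 UMIs (161 CPM) in 9 members in shSdc1 and 43 UMIs (491 CPM) in 24 members in shRFP, a ratio of 0.327 [0.157 to 0.631]. Malt1, a protease and scaffold that leads from immune receptors with ITAM motifs to NF-kB, had 25 UMIs in 16 members in shSdc1 and 77 UMIs in 44 members in shRFP, a ratio of 0.380 [0.232 to 0.604]. Clec4n (Dectin-2), a receptor for fungal mannans that signals through that route, had 8 UMIs in 6 members and 32 UMIs in 26 members (0.293 [0.117 to 0.649]). Malt1 was seen in a majority of shRFP members and so was not the mark of a few cells there. Its ratio was 0.452 [0.347 to 0.585] in C1q barcodes, 0.886 [0.543 to 1.44] in Ccr7 barcodes and 1.16 [0.842 to 1.62] in Cd3 barcodes. The transcription factor Klf6 had 14 and 50 UMIs (0.328 [0.167 to 0.603]), Ifrd1 14 and 56 UMIs (0.293 [0.151 to 0.533]), Rgs1, a brake on chemokine receptor signals, 12 and 41 UMIs (0.343 [0.164 to 0.665]) and Dazap2 6 and 26 UMIs (0.270 [0.0910 to 0.672]). Aldoa, the glycolytic aldolase, had 24 UMIs (321 CPM) in 18 members in shSdc1 and 82 UMIs (936 CPM) in 40 members in shRFP, a ratio of 0.343 [0.208 to 0.546], and the metal-binding gene Mt1 had 10 and 38 UMIs (0.308 [0.137 to 0.631]).

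**Figure D3:**
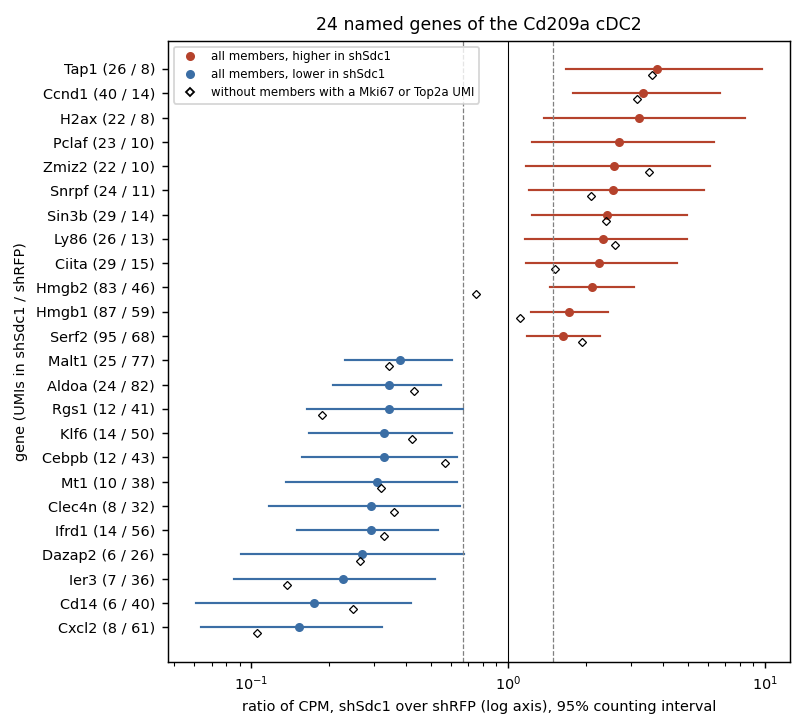
The ratio of CPM (shSdc1 over shRFP, log axis) with its 95% counting interval is plotted for the 24 named genes, with their UMIs in shSdc1 and shRFP beside the name. Open diamonds leave out members with a Mki67 or Top2a UMI, where Hmgb2 turns to 0.749 and H2ax and Pclaf, with 0 UMIs left in shSdc1, have no diamond, and Cxcl2, at 0.154 in all members, is the lowest point.

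Transcripts of the main class II genes were near level between the groups. The 9 measured genes of the class II list, those with at least 20 UMIs, had a median log2 ratio of 0.06, beside -0.05 for all genes. Of them 1 was higher (Ciita) and 0 lower, beside 12.1% and 18% of all genes. Cd74, the invariant chain, had 2224 and 2645 UMIs (29755 CPM in shSdc1 and 30203 CPM in shRFP) and a ratio of 0.985 [0.931 to 1.04]. H2-Ab1 had a ratio of 1.05 [0.963 to 1.14], H2-Eb1 0.966 [0.881 to 1.06] and H2-Aa 1.15 [1.05 to 1.26]. These genes were seen in nearly every member, and their intervals leave room for differences well under 1.5-fold only. The peptide editor genes H2-DMa and H2-DMb1 were at 1.09 [0.834 to 1.41] and 0.848 [0.638 to 1.12], and the class II UMIs of the list in sum at 1.02 [0.985 to 1.06].

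Class I genes were mixed. Of 12 measured genes, 4 were higher and 0 lower, beside 12.1% and 18% of all genes, with a median of 0.43. Besides Tap1, the immunoproteasome subunit gene Psmb9 had 28 UMIs in 24 members in shSdc1 and 15 UMIs in 12 members in shRFP, a ratio of 2.19 [1.13 to 4.41], while Psmb10 and H2-Q7 had ratios of 1.54 [0.765 to 3.15] and 1.52 [0.617 to 3.88]. The classical heavy chain H2-K1, with 105 and 178 UMIs, had a ratio of 0.691 [0.538 to 0.885], H2-D1 0.840 [0.686 to 1.03] and the light chain B2m 0.960 [0.730 to 1.26]. The median was positive while the summed UMIs of the list had a ratio of 0.973 [0.881 to 1.07], with the abundant heavy chains below 1 and the 4 sparser genes above it. The heavy chain genes are near copies of each other, and their values are uncertain for that reason. With a minimum of 50 UMIs, which keeps the abundant genes, the median was -0.25. In C1q barcodes the class I median was 0.46 and in Xcr1 or Clec9a barcodes 0.31.

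Genes of T cell costimulation could hardly be measured. Of the list of costimulatory and checkpoint ligands 4 of 16 reached 20 UMIs, with a median of -0.04. Cd83, which keeps class II on the surface, had 43 and 50 UMIs (1.01 [0.654 to 1.55]), Cd86 10 and 13 UMIs (0.901 [0.354 to 2.22]), Tnfsf9 (4-1BB ligand) 24 and 30 UMIs (0.937 [0.524 to 1.66]) and Sirpa, the receptor for CD47, 20 and 14 UMIs (1.67 [0.804 to 3.58]). For the measured ligands a difference was not detectable at this depth. Cd40, through which CD4 T cells license dendritic cells, had 1 UMI in shSdc1 and 10 UMIs in shRFP (0.117 [0.00270 to 0.824]), and Cd80 1 UMI and 9 UMIs (0.130 [0.00297 to 0.94]), both under the minimum for the list.

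Transcription factors of dendritic cells shared no direction. Of 12 measured, 4 were higher and 2 lower, with a median of 0.09. Of all genes 12.1% were higher and 18% lower, so the lower ones were near the background. Irf8, the factor of type 1 and plasmacytoid dendritic cells, had 16 UMIs in 8 members in shSdc1 and 5 UMIs in 3 members in shRFP, a ratio of 3.75 [1.31 to 13.1], at levels far under the 2657 CPM (shSdc1) and 2046 CPM (shRFP) of Xcr1 or Clec9a barcodes. Tcf4 had a ratio of 1.79 [0.969 to 3.37], Id2 1.67 [0.804 to 3.58] and Runx3 1.64 [0.678 to 4.13]. Only the Irf8 interval of these 4 lay above 1. The lower factors were Cebpb and Zeb2, with 7 UMIs in shSdc1 and 25 UMIs in shRFP (0.328 [0.120 to 0.780]), while the myeloid master factor Spi1, at 1.22 [0.821 to 1.80], and Klf4, which the type 2 lineage needs, at 1.09 [0.489 to 2.43], were not different by 1.5-fold. Irf4, another factor of the type 2 lineage, had 6 and 11 UMIs, Batf3 of the type 1 lineage 6 and 2, and Zbtb46, which marks conventional dendritic cells, 8 and 6.

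Surface receptors differed gene by gene. For the counts of this paragraph, the background was 12.1% of all genes higher and 18% lower. In the list of type 2 dendritic genes, 3 of 9 measured were higher (Ccnd1, Sirpa and Cbfa2t3) and 1 lower (Il1r2), with a median of 0.17. Cbfa2t3 had 37 UMIs in 26 members in shSdc1 and 22 UMIs in 21 members in shRFP (1.97 [1.13 to 3.51]), and Il1r2 20 UMIs in 15 members and 47 UMIs in 26 members (0.499 [0.280 to 0.858]). Mgl2 was level, at 1.08 [0.835 to 1.40]. Plet1, a surface gene of a subset of mouse type 2 dendritic cells, had 0 UMIs in shSdc1 and 14 UMIs in 9 members in shRFP, at least 3.98-fold lower against a floor of 3 counts. Among the C-type lectins 2 of 6 were higher (Cd209d at 2.02 [0.915 to 4.71] and Clec4a2 at 1.70 [0.743 to 4.06]) and 3 lower (Clec4n, Mrc1 at 0.631 [0.213 to 1.70], and Clec4a3 with 7 and 23 UMIs at 0.357 [0.129 to 0.858]). The Cd209 and Clec4a genes are clusters of near copies, and the sources used here do not say how reads shared by copies were counted, so their values are uncertain. The chains of the GM-CSF receptor, Csf2ra with 19 and 25 UMIs (0.890 [0.464 to 1.68]) and Csf2rb with 15 and 27 UMIs (0.651 [0.322 to 1.27]), had intervals that include 1, although Csf2rb was lower by 1.5-fold.

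Inflammatory genes were lower in shSdc1 members, as they were in the other kept barcodes. Of 18 measured genes of the NF-kB and inflammatory list, 8 were lower and 0 higher, beside 18% and 12.1% of all genes. In that list 16 had ratios below 1, and the median log2 ratio was -0.44. Il1b, the gene of interleukin-1 beta, had 117 UMIs (1565 CPM) in 26 members in shSdc1 and 220 UMIs (2512 CPM) in 46 members in shRFP, a ratio of 0.623 [0.494 to 0.783]. Its ratio was 0.351 [0.249 to 0.489] in Ccr7 barcodes and 0.430 [0.380 to 0.486] in C1q barcodes. Plaur, the urokinase receptor, had 9 and 33 UMIs (0.320 [0.134 to 0.683]), Bcl2a1b, a survival gene with near copies, 21 and 58 UMIs (0.424 [0.245 to 0.710]), and Ptgs2, the prostaglandin synthase COX-2, 7 and 21 UMIs (0.391 [0.140 to 0.954]). The negative regulators of the pathway had ratios nearer 1, with Nfkbia at 0.785 [0.573 to 1.07] and Tnfaip3 at 0.879 [0.379 to 1.98]. The median of the list was -0.60 in C1q barcodes, -0.32 in Ccr7 barcodes and -0.71 in all other kept barcodes, so the direction was shared. Oncostatin M (Osm) had 1 UMI in shSdc1 and 16 UMIs in 13 members in shRFP.

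Chemokine genes were lower as well. Of 8 measured, 6 were lower and 0 higher, beside 18% and 12.1% of all genes. The median was -0.85, and -0.84 in all other kept barcodes. After Cxcl2 came Ccl9 with 5 and 16 UMIs (0.366 [0.105 to 1.05]), Ccl17, a ligand of Ccr4 on T cells, with 8 and 18 UMIs (0.521 [0.196 to 1.26]), and Cxcl16, the ligand of Cxcr6, with 9 and 20 UMIs (0.527 [0.211 to 1.21]). Apart from Cxcl2 the intervals of these genes include 1. The interferon-induced T cell attractants Cxcl9 and Cxcl10 had ratios of 0.586 [0.232 to 1.37] and 1.37 [0.587 to 3.24], and Ccl4 had 47 UMIs in each group (1.17 [0.765 to 1.79]). Of the receptors, Ccr2, the receptor for entry from blood, had 23 and 33 UMIs (0.817 [0.458 to 1.43]). Gpr183, an oxysterol receptor that places type 2 dendritic cells in lymphoid organs, had 12 UMIs in shSdc1 and 3 UMIs in shRFP, a ratio of 4.69 [1.26 to 25.9], under the minimum for the list. Of 3 measured receptors 0 were higher and 0 lower, with a median of 0.23, and their list had a ratio of summed CPM of 1.27 [0.966 to 1.68].

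Few interferon response genes could be measured. The type I list had 5 measured genes, a median of 0.39, 1 higher (Bst2, 28 and 18 UMIs, 1.82 [0.973 to 3.50]) and 0 lower. The interferon gamma list had 7, a median of 0.45, 3 higher (Tap1, Psmb9 and Ciita) and 1 lower (Cxcl9). Beside these counts, 12.1% of all genes were higher and 18% lower. The 3 higher genes of the interferon gamma list serve presentation, while Irf1, a transcription factor of that response, had a ratio of 1.08 [0.451 to 2.57]. In C1q barcodes the interferon gamma list had a median of 0.62, in Ccr7 barcodes 0.23 and in Xcr1 or Clec9a barcodes 0.01. The type I median was 0.40, 0.46 and 1.99 in these sets. For Xcr1 or Clec9a barcodes each list had 4 measured genes.

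Glycolytic genes were lower, whereas oxidative phosphorylation genes past 1.5-fold were about as frequent as among all genes. All 12 measured genes of hypoxia and glycolysis had ratios below 1, 5 of them lower by 1.5-fold, with a median of -0.44. Besides Aldoa these were Eno1 with 16 and 48 UMIs (0.391 [0.207 to 0.7]), Tpi1 with 16 and 45 UMIs (0.417 [0.220 to 0.751]), Pgk1 with 20 and 43 UMIs (0.545 [0.304 to 0.947]) and Hilpda, a lipid droplet gene induced by low oxygen, with 5 and 16 UMIs (0.366 [0.105 to 1.05]). The most abundant member, Gapdh, had 153 and 238 UMIs (0.753 [0.611 to 0.927]). The same list had a median of -0.48 in Ccr7 barcodes, -0.36 in C1q barcodes and 0.26 in Xcr1 or Clec9a barcodes. Of 21 oxidative phosphorylation genes, 3 were higher and 4 lower, near the background of 12.1% and 18%, with a median of -0.38 and a ratio of summed CPM of 0.951 [0.849 to 1.06], whereas the median was between 0.03 and 0.23 in the other 5 sets, a difference that was not tested. Genes of lipid handling had a median of -0.65, with 4 of 6 lower, among them Fabp5, a fatty acid carrier, with 18 and 50 UMIs (0.422 [0.232 to 0.736]) and Spp1 (osteopontin) with 6 and 22 UMIs (0.320 [0.106 to 0.813]).

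Several stress genes were lower as well, while structural genes were lower no more often than all genes. Immediate early and dissociation stress genes, which respond to tissue digestion, had a median of -0.33, with 6 of 22 lower and 0 higher, among them Junb with 113 and 223 UMIs (0.594 [0.469 to 0.748]), Dusp1 with 37 and 77 UMIs (0.563 [0.370 to 0.844]) and Jund with 29 and 63 UMIs (0.539 [0.335 to 0.850]). The classical digestion markers Fos, Jun and Hspa1a had ratios of 0.905 [0.616 to 1.32], 0.991 [0.604 to 1.62] and 0.894 [0.647 to 1.23]. The part of the digestion in the lower genes was not tested. The list's median was -0.76 in all other kept barcodes. Of 21 S100, annexin and actin genes, 2 were lower, a share under the 18% of all genes, with a ratio of summed CPM of 0.964 [0.929 to 0.999]. They were S100a9, from 1 barcode, and S100a11 (83 and 150 UMIs, 0.648 [0.490 to 0.853]), and the cytoplasmic actin Actg1 with 317 and 535 UMIs (0.694 [0.602 to 0.799]) differed while Actb (0.929 [0.870 to 0.992]) was near level. The 24 ribosomal protein genes had a median of 0.20, with 21 ratios above 1 and 0 past 1.5-fold. With median-of-ratios scaling, which shifts every log2 ratio by -0.23, that median was -0.026, so its direction depends on the scaling. Under the same scaling 107 genes were higher and 398 lower, against 163 and 242 by CPM.

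**Figure D4:**
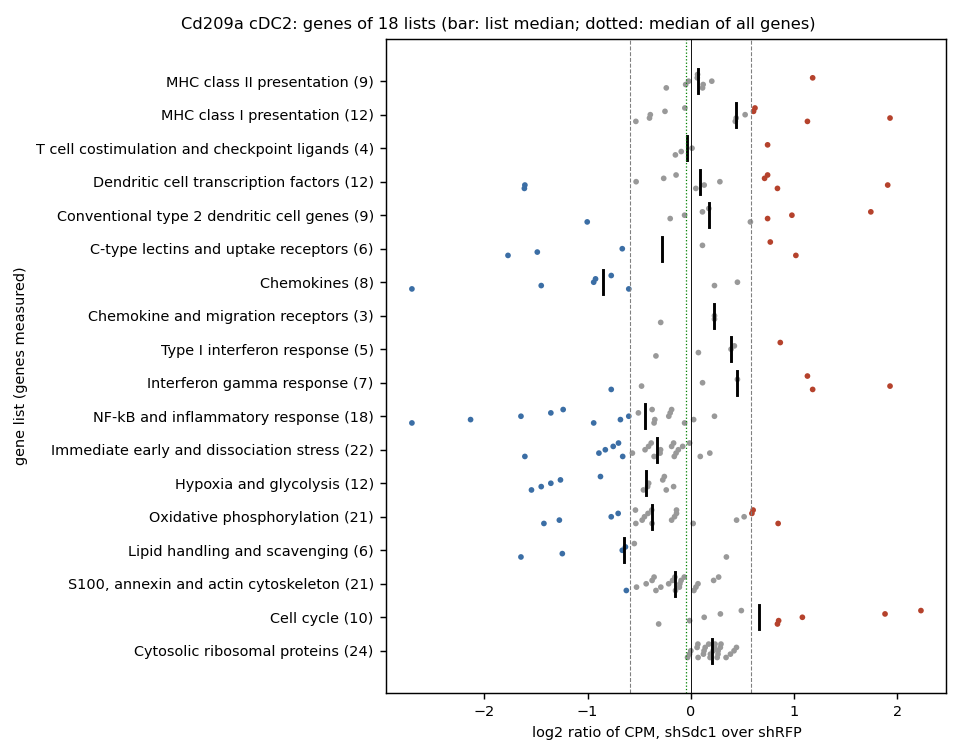
The log2 ratio of CPM (shSdc1 over shRFP) is plotted for the measured genes of 18 lists, red for higher and blue for lower by 1.5-fold (dashed lines), with a bar at the list median. Cell cycle (0.66), interferon gamma (0.45) and class I (0.43) medians lie right of the median of all genes (dotted), chemokine (-0.85) and lipid handling (-0.65) medians left of it, and S100a9, with 0 UMIs in shSdc1, is not drawn.

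Syndecan genes were sparse in these cells. Sdc1, the gene targeted in the tumor cells, had 0 UMIs in members of both groups, which allows up to 3 counts in each. Sdc4 had 6 UMIs in shSdc1 and 17 UMIs in shRFP (0.414 [0.134 to 1.10]) and Sdc3 8 UMIs in each. Cd44, a hyaluronan receptor that can carry heparan sulfate, had 19 and 39 UMIs (0.571 [0.312 to 1.01]). Of the 16 listed genes of syndecans and heparan sulfate, Cd44 and Sdc4 alone reached 20 UMIs, and both were lower by 1.5-fold with intervals that include 1. The sort removed the tumor cells that carried the hairpin, so these values do not measure its effect on Sdc1.

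Members with transcripts of dividing cells were more frequent in shSdc1, and the few Xcr1 or Clec9a barcodes had shares in the same direction. At least 1 UMI of Mki67 or Top2a, genes of dividing cells, was seen in 18 of 61 members in shSdc1 (29.5% [18.5 to 42.6]) and in 8 of 82 in shRFP (9.76% [4.31 to 18.3]). Thinned to 500 UMIs, the shares were 15.0% [7.10 to 26.6] in shSdc1 and 3.85% [0.8 to 10.8] in shRFP, with intervals that overlap. In Xcr1 or Clec9a barcodes the thinned shares were 13.5% [4.54 to 28.8] (5 of 37) and 4.17% [0.105 to 21.1] (1 of 24). These are close to the shares of members but rest on few barcodes, with intervals that overlap. They were 28.9% and 19.9% of Cd3 barcodes, 5.89% and 6.43% of C1q barcodes and 2.56% and 4.94% of Ccr7 barcodes. Of 10 measured cell cycle genes 5 were higher and 0 lower, beside 12.1% and 18% of all genes. The median was 0.66, and the summed CPM of the list had a ratio of 1.64 [1.42 to 1.89]. In all other kept barcodes the median was 0.67 and the ratio of sums 1.42 [1.39 to 1.45], and in Xcr1 or Clec9a barcodes 0.59 and 1.33 [1.10 to 1.61], so the direction was shared. Top2a had 20 and 5 UMIs (4.69 [1.71 to 16.0]) and Mki67 22 and 7 UMIs (3.68 [1.52 to 10.2]). Mki67 was also higher in Xcr1 or Clec9a barcodes, with 27 UMIs in shSdc1 and 4 UMIs in shRFP (3 [1.05 to 11.8]), but not in Ccr7 barcodes, with 3 and 6 UMIs. The mitotic genes Ube2c, Cenpa and Birc5 had ratios of 1.09 [0.489 to 2.43], 0.806 [0.338 to 1.85] and 0.991 [0.402 to 2.40]. With 3 or more UMIs over 15 cycle genes as the criterion, which mixes S phase and mitosis genes, 24.6% of members in shSdc1 and 14.6% in shRFP met it. Members with a Mki67 or Top2a UMI were deeper, with a median of 1617 UMIs in shSdc1 and 1691 in shRFP, against 1006 and 929 in the remaining members, and had less Mgl2 (906 and 889 CPM, against 2047 and 1579 CPM).

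Leaving out the members with a Mki67 or Top2a UMI, a comparison added after the values were seen, moved some named genes and left others. It took out 18 of 61 members in shSdc1 and 8 of 82 in shRFP. The lower values of cell cycle genes follow at least in part from this choice by 2 cell cycle genes. The cell cycle median became -0.50, Hmgb2 was at 0.749, and H2ax and Pclaf had 0 UMIs in shSdc1 and 3 UMIs in shRFP, so all shSdc1 UMIs of H2ax and Pclaf were in the members left out. Ccnd1 stayed at 3.16 [1.51 to 6.97], Tap1 at 3.63 [1.16 to 13.3], Psmb9 at 3.60 and Irf8 at 5.28. Ciita was at 1.52 [0.635 to 3.62] and Snrpf at 2.10 [0.885 to 5.11], with intervals that now include 1, and Hmgb1 was at 1.11. Cxcl2 was at 0.105, Cd14 at 0.25, Ier3 at 0.137, Malt1 at 0.344 and Aldoa at 0.430, all still lower. Cebpb was at 0.568 [0.247 to 1.2] and Il1b at 0.663.

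Members with a Cxcl2 or Cd14 UMI also had higher CPM of Il1b and Lyz2 than the other members of their group, on few UMIs in shSdc1. There were 5 such members in shSdc1 and 27 in shRFP, numbers that follow from the choice of these 2 genes for their difference. These had Il1b at 3452 CPM (23 UMIs) in shSdc1 and 3410 CPM (116 UMIs) in shRFP, against 1381 and 1942 CPM in the other members. In shSdc1, 17 of the 23 Il1b UMIs were in the 2 members with UMIs of both Cxcl2 and Cd14. Lyz2, a lysozyme of monocytes and macrophages, was at 600.3 CPM (4 UMIs) and 1469.8 CPM (50 UMIs) in that subset. In the rest it was at 338 CPM (23 UMIs) and 299 CPM (16 UMIs).

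Depth and free RNA bear on the shares of members with a UMI. In droplets, RNA from lysed cells adds UMIs to cells that do not express a gene, and Cd3 barcodes, which should lack the myeloid genes, give that level. The thinning to 500 UMIs left out 1 member in shSdc1 and 4 in shRFP. Cxcl2 was then seen in 1.67% of members in shSdc1 and 14.1% in shRFP, against 3.21% and 5.88% of Cd3 barcodes. Cd14 was seen in 1.67% and 15.4% of members, against 1.41% and 2.26% of Cd3 barcodes, and Ier3 in 3.33% and 12.8% of members, against 4.62% and 4.52%. The shSdc1 shares of Cxcl2 and Cd14 were thus at or near the background of free RNA. Ier3 is a gene of stressed and stimulated cells, so its share in Cd3 barcodes may not be free RNA alone. In shRFP the interval of Cd14 (8.21% to 25.3%) lay above that of Cd3 barcodes (0.739% to 5.20%), whereas those of Cxcl2 (7.26% to 23.8%) and Ier3 (6.32% to 22.3%) overlapped it (3.17% to 9.85% for Cxcl2 and 2.19% to 8.16% for Ier3). The thinned share of Il1b was 33.3% in shSdc1 and 48.7% in shRFP (Cd3 barcodes 1.41% and 4.07%), that of Ccnd1 21.7% and 6.41% (Cd3 barcodes 0.402% and 0.452%) and that of Malt1 10.0% and 34.6% (Cd3 barcodes 10.2% and 8.14%). Tap1 was seen in 11.7% and 3.85% of members after thinning, and in 14.5% and 16.3% of Cd3 barcodes, which express it themselves, as T cells do Psmb9 and Malt1. The Cd3 barcodes had a median of 584 UMIs in shSdc1 and 517 in shRFP before thinning, which left out 350 and 202 of them.

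**Figure D5:**
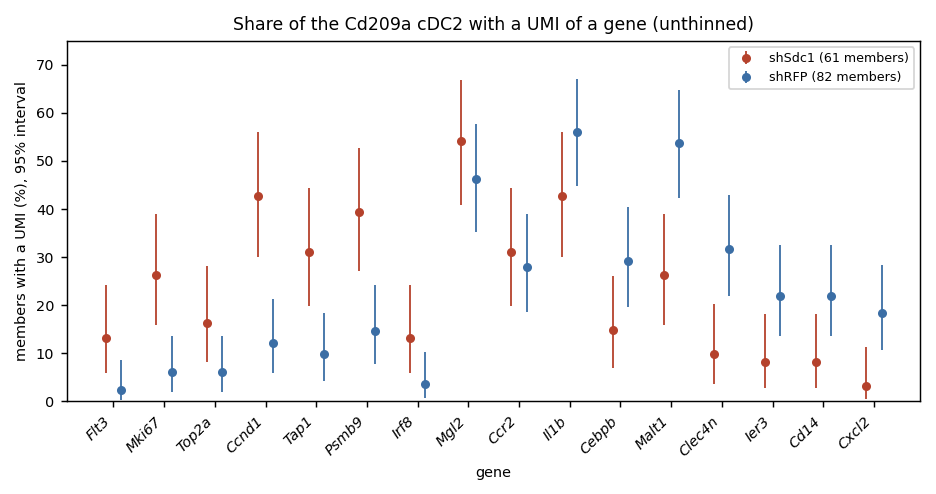
The share of members with at least 1 UMI (unthinned, in %) is plotted for 16 genes, shSdc1 left of shRFP, with 95% Clopper-Pearson intervals. Ccnd1 (42.6% in shSdc1 and 12.2% in shRFP), Tap1 (31.1% and 9.76%) and Psmb9 (39.3% and 14.6%) stand higher in shSdc1, Malt1 (26.2% and 53.7%), Cd14 (8.20% and 22.0%) and Cxcl2 (3.28% and 18.3%) lower, and Mgl2 and Ccr2 overlap.

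Markers of other cells were low in members but not equal between the groups. The type 1 dendritic list had 91 UMIs in shSdc1 and 52 UMIs in shRFP, a ratio of 2.05 [1.44 to 2.94], with 8 of 10 genes seen and Xcr1 and Clec9a at 0 by the rule. The plasmacytoid list had 44 and 29 UMIs (1.78 [1.09 to 2.95]), with Siglech, Cox6a2, Klk1 and Pacsin1 at 0. Irf8 is on the type 1 list and Tcf4 on the plasmacytoid list, so these sums hold their UMIs as well. The part of type 1 or plasmacytoid cells in the higher Irf8 and Tcf4 was not tested. The macrophage list had 64 and 77 UMIs over 10 of 13 genes, with Mertk, C5ar1 and Stab1 at 0 and the C1q genes held low by the rule, a ratio of 0.974 [0.688 to 1.37], and the migratory dendritic list 69 and 95 UMIs (0.851 [0.615 to 1.17]). Monocyte and macrophage genes that the rule did not use shared no direction. Csf1r had 4 and 9 UMIs (0.521 [0.117 to 1.87]), Fcgr1 6 and 14 UMIs (0.502 [0.158 to 1.39]) and Lyz2 27 and 66 UMIs (0.479 [0.294 to 0.761]). The other way went Apoe with 10 and 4 UMIs (2.93 [0.845 to 12.8]), Aif1 with 9 and 5 UMIs (2.11 [0.635 to 8.01]) and Plac8 with 60 and 49 UMIs (803 and 560 CPM). The part of monocytes and macrophages in the lower Cxcl2 and Cd14 was not tested. The neutrophil list had 0 UMIs in shSdc1 and 29 UMIs in shRFP, with Csf3r, Cxcr2, G0s2 and Mmp9 at 0. Of these, 20 UMIs of S100a9 and 7 of S100a8 were in 1 shRFP member, which also had 8 Cd209a UMIs, 141 class II UMIs, 7 of the 61 Cxcl2 UMIs and 2017 UMIs in all, so that S100a9 describes 1 barcode. T cell markers had 5 UMIs in shSdc1 and 1 UMI in shRFP, NK cell markers 1 and 2, B cell markers 18 and 10, mast cell markers 1 and 3, fibroblast and endothelial markers 6 and 3, and red cell markers 0 in both. Melanoma markers had 2 and 3 UMIs, with the pigment genes Pmel, Mlana, Tyrp1, Dct and Tyr at 0.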

How the data were processed

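Live CD45+ cells of 2 groups of B16 tumors were profiled by droplet single-cell RNA sequencing, as 1 library of 6 pooled tumors per group. The authors deposited unnormalized UMI counts for each gene in each barcode, which Cell Ranger 6.1.1 produced (per the file headers) on mm10 (per the submitters' processing notes), with no annotation release named in the labels or headers. The deposited files list 31253 features, of which 31107 were found by identifier in GENCODE M21, whose coordinates on mm10 were used.

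Barcodes with at least 200 genes and under 10% mitochondrial UMIs were kept, members were chosen by the rule given at the opening, and their UMIs were summed per library and divided by the library's member total (CPM, without further scaling). The members and all gene lists were chosen with earlier results of these data known. Ratios are shSdc1 over shRFP, with exact conditional binomial 95% intervals. CPM have exact Poisson and shares Clopper-Pearson intervals. With 1 library per group no test was made. The comparison sets were barcodes outside the members with at least 2 UMIs of Xcr1 and Clec9a, at least 3 of Ccr7, Fscn1, Ccl22 and Cacnb3 with Ccr7 among them, at least 4 of Retnla, Ear2 and Lyz1, at least 5 of the C1q genes, or at least 2 of the Cd3 genes, each with limits on the genes of other sets. List genes needed at least 20 UMIs in both libraries together. Of the listed symbols, 4 (Ifi30, Clec7a, Mx2 and H2afz) were not matched and were not analysed here. Some other genes are not reported here and were left out of the lists. Named genes had at least 30 UMIs and at least a 1.5-fold ratio, and were the 12 in each direction whose interval bound nearest 1 was farthest from it. The 15 leading genes had at least 50 UMIs and were seen in at least 10% of members. Mitochondrial, ribosomal protein, hemoglobin, immunoglobulin, T cell receptor and sex-linked marker genes and gene models were left out of both rules, and members of the lists could be named as well.

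Doublets were kept, because Scrublet's automatic threshold marked 1 barcode in each library (0.0179% in shSdc1 and 0.0191% in shRFP) and so had not worked. An alternative removed the 249 and 218 barcodes with the highest doublet scores, among them 1 and 2 members. Other alternatives changed the filters, the rule, the minimum of UMIs and the scaling (median-of-ratios, or TMM from edgeR 4.0.16 in R 4.3.3). Leaving out members with a Mki67 or Top2a UMI was added after seeing the data. The calculations were tested on simulated data and run in Python 3.11.15 with scanpy 1.11.5, scipy 1.17.1, numpy 2.4.6 and pandas 2.3.3.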

Additional observations from a re-analysis of the deposited data

Results flagged for a closer look

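In 5 of the named genes the ratio of shSdc1 over shRFP and its counting interval lay on one side of 1 in members and on the other side in another set of barcodes. With 1 library per group the difference between sets was not tested. H2ax was at 3.22 [1.38 to 8.37] in members and 0.567 [0.410 to 0.781] in C1q barcodes. Hmgb1 was at 1.73 [1.23 to 2.45] in members and 0.903 [0.825 to 0.987] in C1q barcodes. Snrpf was at 2.56 [1.21 to 5.78] in members and 0.770 [0.636 to 0.932] in C1q barcodes. Ciita was at 2.27 [1.18 to 4.55] in members, and in Ccr7 barcodes it had 0 UMIs in shSdc1 and 7 UMIs in shRFP (upper bound of the ratio 0.667). Mt1 was at 0.308 [0.137 to 0.631] in members and 2.63 [1.35 to 5.58] in Retnla, Ear2 or Lyz1 barcodes.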

How the results depend on the processing

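Depth limits these results: the 1347 measured genes rest on 74744 UMIs in shSdc1 and 87575 in shRFP. The numbers of genes higher and lower by 1.5-fold were 107 and 398 with median-of-ratios scaling, which shifts every log2 ratio by -0.23, 14 and 53 with a minimum of 50 UMIs, 1613 and 1590 with no minimum, and 86 and 120 with at least 2 Cd209a UMIs per member. Median-of-ratios scaling put the median log2 ratio of all genes at -0.28, of class II presentation at -0.16, of costimulation at -0.27, of oxidative phosphorylation at -0.60, of S100, annexin and actin genes at -0.38 and of ribosomal protein genes at -0.026. With no minimum the median of all genes was 0.23. The receptor median was 0.24 with TMM scaling and 0.26 with totals that leave out mitochondrial and ribosomal genes, and the type I interferon median was -0.36 with at least 2 Cd209a UMIs. Without members with a Mki67 or Top2a UMI the cell cycle median was -0.50, Hmgb2 was at 0.749, and H2ax and Pclaf were at 0. Hmgb1 was at 1.11 there. Of the 24 named genes, 19 stayed past 1.5-fold under all 11 alternatives, and the exceptions were Hmgb2, H2ax, Pclaf, Hmgb1 and Serf2 (1.40 with median-of-ratios scaling). The medians of the NF-kB (-0.72 to -0.35), stress (-0.56 to -0.29), glycolysis (-0.82 to -0.29), oxidative phosphorylation (-0.60 to -0.05) and lipid (-0.88 to -0.38) lists were negative under all 13 alternatives, and that of chemokines (-1.16 to -0.56) under the 11 that left enough genes. The costimulation, lectin, receptor and interferon lists also had too few genes for a median under some alternatives. Besides those above, the signs of the class I, transcription factor, type 2 dendritic gene, lectin and receptor medians turned under at least 1 alternative. The share ratio of members lay between 0.662 and 0.890 under 6 alternatives, and its interval included 1 under 4 of them (at least 500 genes, under 5% mitochondrial UMIs, at least 2 Cd209a UMIs, and thinning). No paired analysis was possible because each group is 1 library, and for the same reason no replicate could be left out.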

Other observations

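Among genes with at least 10 UMIs in members, 9 had 0 UMIs in shSdc1 and 2 had 0 UMIs in shRFP, which were picked out after their values were seen. Thbs1, the gene of the matrix protein thrombospondin-1, had 0 UMIs in shSdc1 and 16 UMIs in 6 members in shRFP, at least 4.55-fold lower against a floor of 3 counts per library. Ncf1, a subunit of the NADPH oxidase, had 0 UMIs in shSdc1 and 14 UMIs in 13 members in shRFP, at least 3.98-fold lower. Vars, a valyl-tRNA synthetase, had 11 UMIs in 10 members in shSdc1 and 0 UMIs in shRFP, at least 4.30-fold higher, and Phf11b had 10 UMIs in 8 members in shSdc1 and 0 UMIs in shRFP, at least 3.91-fold higher.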
